A study of Mus musculus with 6 samples.

Results

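The 10 genes described here encode the ligand Nodal, the 2 subunits of activins A and B (Inhba and Inhbb), the activin antagonist Fst, the type I receptors Acvr1b (ALK4) and Acvr1c (ALK7), the type II receptors Acvr2a and Acvr2b, and the signal transducers Smad2 and Smad4. They were taken by symbol from the 56884 gene rows of the deposited matrices, and 10 of 10 had at least 1 UMI (unique molecular identifier, 1 per captured transcript) in the named cell types of each of the 6 libraries. The comparison addressed which cells of the cortex express Nodal, which carry transcripts of its receptors, and how these transcripts differed between a control and a mutant library.

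Nodal and activins belong to the TGF-beta superfamily and bind a complex of a type II and a type I receptor kinase. The type I receptor then phosphorylates Smad2 and Smad3, which enter the nucleus with Smad4. Nodal, in contrast to activin, generally also needs a co-receptor of the Cripto family (Tdgf1 or Cfc1), is released from its precursor by convertases such as Furin and Pcsk6, and is held back by Lefty1 and Lefty2. Fst binds activins and keeps them from their receptors. Nodal is best known for mesoderm formation and left-right patterning in the early embryo.

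The study pooled the cells of 2 mice for each of 6 BD Rhapsody libraries, 1 library per genotype, so that no difference between genotypes has a replicate and no p-value was computed. The cortex libraries came from mice at postnatal day 12 that were Nodal lox/lox (control) or Nodal iPCKO. The lung libraries came from mice at postnatal day 21 that were Bdnf lox/lox, Bdnf iPCKO, Hgf lox/lox or Hgf iPCKO. All mice had received 3 injections of 50 µg tamoxifen from day 1 to day 3. iPCKO mice carried the floxed alleles and the transgene Pdgfrb(BAC)-CreERT2, a tamoxifen-inducible Cre recombinase under the promoter of Pdgfrb, a receptor gene of mural cells, so that vascular smooth muscle cells are targeted together with pericytes. The labels name no Cre for the controls. Lung suspensions were depleted of CD45+ and Ter119+ cells before capture, and myelin debris was removed from the cortex cells.

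Barcodes were assigned to cell types by fixed sets of marker genes that hold none of the 10 genes. In the cortex this gave 317 and 451 pericytes (control first, here and below), 67 and 97 vascular smooth muscle cells, 93 and 120 fibroblasts, 814 and 1476 endothelial cells, 804 and 908 astrocytes, 890 and 1439 microglia and 70 and 220 neurons. Most genes held out of the gate were highest where the names place them. The mural gene Rgs5 had 26518 and 23555 CPM (the UMIs of a gene scaled to a total of 1000000 UMIs in the same cells) in pericytes. Smooth muscle cells had 16586 and 17063 CPM of Rgs5. Notch3, a further mural gene, had 1761 and 1603 CPM in pericytes and 1856 and 1977 CPM in smooth muscle cells. Rgs5 and Notch3 were thus high in both mural types and do not test the split between them. The endothelial receptor gene Kdr had 1888 and 2472 CPM in endothelial cells and the microglial receptor gene Trem2 851 and 829 CPM in microglia. Pdgfrb, which also drives the Cre, had 750 and 2001 CPM in pericytes. It was also higher in the mutant library outside mural cells, with 4.68 and 210 CPM in microglia, where 2090 mutant UMIs put it above fibroblasts (144 CPM), and 31.5 and 99.5 CPM in astrocytes. Trem2 differed little in those microglia, and the cause of the Pdgfrb difference was not tested. Of the smooth muscle cells, 19 of 67 and 25 of 97 lay near the margin of their gate. All intervals below are exact 95% intervals that cover counting error only, not the variation between mice or captures. Where a count is 0, the limit given is that of 3 counts (3 UMIs for a level, 3 cells for a share), and a share limits the cells with a UMI, not the cells that express the gene.

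Nodal transcripts were found in pericytes of the control cortex. The gene (ENSMUSG00000037171.7) lies on the plus strand of chromosome 10 from 61253587 to 61261117 of GRCm39, and no exon of another gene overlaps its exons. In control pericytes 192 UMIs gave 96.6 CPM (83.4 to 111). No Nodal UMI was found in control smooth muscle cells, fibroblasts or endothelial cells, and astrocytes, microglia and neurons held 1 UMI each. A 0 was set to a floor of 3 UMIs, and the folds against it leave out the counting error of the pericyte UMIs. The level in pericytes was 19.5-fold that of smooth muscle cells, 42.2-fold that of fibroblasts and 300.2-fold that of endothelial cells. Against neurons, with 1 UMI at 0.623 CPM, it was 155-fold higher (27.5 to 6156).

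Within the control pericytes Nodal was found in a minority of cells. At least 1 UMI was counted in 110 of 317 cells, or 34.7% (29.5 to 40.2). Of these, 63 cells held 1 UMI, 29 held 2 and 18 held 3 or more, with a maximum of 7. Cells with a Nodal UMI had a median of 5452 UMIs in all and cells without one 6172, so the cells with a UMI were not the deeper ones. For comparison, 1 of 804 astrocytes (0.124%) held a Nodal UMI. The median depth was 9939.5 UMIs in astrocytes and 5928 UMIs in pericytes. Barcodes with 10 to fewer than 100 UMIs, which held no cell, carried 10 Nodal UMIs (7.18 CPM), below the level in pericytes and above the levels in the other types. How much of the UMIs outside cells enters a cell was not measured. A level below that of barcodes without a cell therefore does not decide whether the cells express the gene. Comparisons with these barcodes below are of the values alone unless intervals are named.

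In the Nodal iPCKO cortex no Nodal UMI was found in 451 pericytes, a count of 0 that allows at most 0.665% of cells with a UMI and a level of at most 1.04 CPM. The level was 92.6-fold lower than in the control when the 0 is set to 3 UMIs, a log2 ratio of -6.53. The upper end of the exact interval of the log2 ratio, which includes the counting error of the control, was -6.22. Smooth muscle cells, which the Cre also targets, held no Nodal UMI among 605160 control and 721748 mutant UMIs, so no difference could be detected in them. The other types held 1 UMI in astrocytes, 3 in microglia and 1 in neurons, and barcodes without a cell held 1 (0.398 CPM). Which exons are flanked by loxP sites and where the 3′ reads fall relative to them was not given in the sources used here, so that this value describes the captured Nodal transcript and not the alleles.

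**Figure D1:**
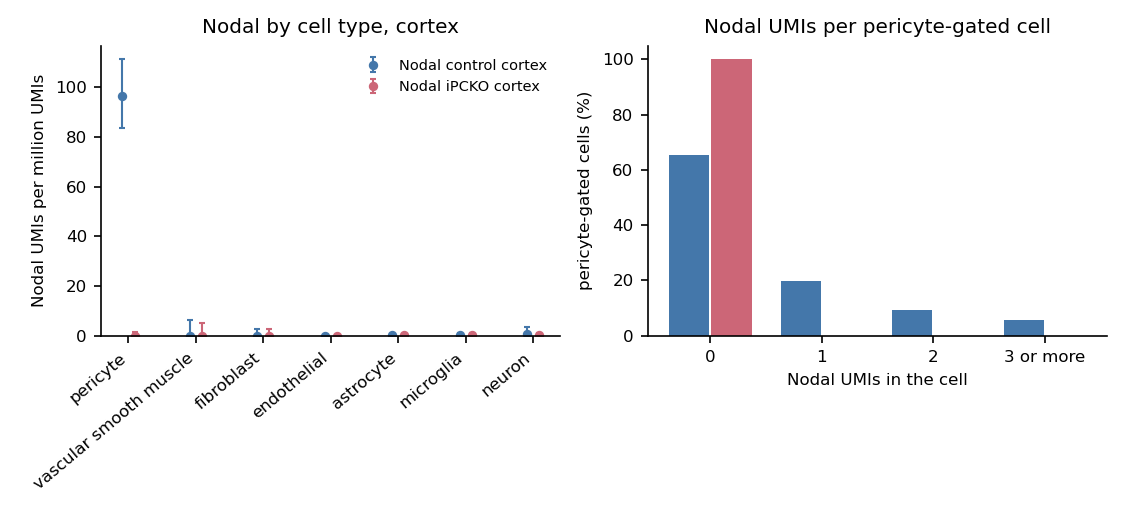
The left panel plots Nodal in CPM, with exact Poisson 95% intervals, in the 7 cell types of the control and Nodal iPCKO cortex, and the right panel the percentage of pericytes with 0, 1, 2 or at least 3 Nodal UMIs in each library. Control pericytes stand alone at 96.6 CPM, and 34.7% of them held a Nodal UMI against 0 of 451 in the mutant.

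Likeness to Nodal was measured over cell types. Among 15791 genes, the Pearson correlation with Nodal of the log2(CPM + 1) level over the 7 cell types of the control library was highest for Cpa1 (0.992), Gm36823 (0.992), Prpsap1 (0.977), Abcc9 (0.968) and Pla1a (0.961). The 7 points share 1 library, and the correlation is a description. Cpa1, a carboxypeptidase of the exocrine pancreas, had 28.2 CPM in control and 17.0 CPM in mutant pericytes. Abcc9, which encodes a regulatory subunit of potassium channels and was itself a marker of the pericyte gate, had 2206 and 1871 CPM. Pla1a, a phospholipase gene, had 138 and 163 CPM. Unlike Nodal, the 5 genes kept levels within 2-fold in the mutant library.

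Transcripts of the type I receptor Acvr1b, through which both Nodal and activins signal, were unevenly spread over the cortex and nearly absent from endothelial cells. The gene lies on chromosome 15 from 101071921 to 101111565 of GRCm39 on the plus strand. In the control cortex Acvr1b was highest in neurons at 96.6 CPM (82.0 to 113), followed by fibroblasts at 24.4 CPM (16.7 to 34.5). Microglia at 15.3 CPM, smooth muscle cells at 14.9 CPM and astrocytes at 12.9 CPM did not differ from one another beyond their counting intervals. Pericytes held 2.52 CPM on 5 UMIs (0.817 to 5.87), and endothelial cells, the deepest group in total UMIs, 0.536 CPM on 5 of 9322616 UMIs (0.174 to 1.25). Both lay below the 7.18 CPM of barcodes without a cell, which does not decide whether they are background. Relative to endothelial cells, the Acvr1b level was 180-fold higher in neurons (75.5 to 562), 45.5-fold in fibroblasts (17.6 to 150), 28.4-fold in microglia (11.7 to 89.8) and 24.0-fold in astrocytes (9.97 to 75.6).

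The Nodal iPCKO library gave the same outer order, with 98.2 CPM in neurons (90.2 to 107) at the top and 0.719 CPM in endothelial cells (12 of 16684355 UMIs) at the bottom. Fibroblasts (16.9 CPM) and microglia (11.9 CPM) were not separated by their intervals in this library, nor were astrocytes (8.35 CPM), smooth muscle cells (6.93 CPM) and pericytes (2.78 CPM) each from its neighbour. Barcodes without a cell held 11.1 CPM (7.41 to 16.1) in this library. Microglia were at that level, and pericytes and endothelial cells were below its interval. Astrocytes and smooth muscle cells had lower values, but with overlapping intervals. As a share of cells, Acvr1b was found in 86 of 804 control astrocytes (10.7%, 8.65 to 13.04) and in 5 of 814 control endothelial cells (0.614%, 0.200 to 1.43), at median depths of 9939.5 and 9608 UMIs.

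Acvr1c, the second type I receptor of the pathway and the one that Nodal can also use, was found in neurons and astrocytes at low levels. Neurons had 5.61 and 3.05 CPM (9 and 17 UMIs) and astrocytes 4.42 and 5.64 CPM (35 and 52 UMIs). The 2 types were not separated by their intervals in the control. Microglia held 3 and 2 UMIs, pericytes 1 and 0, and smooth muscle cells, fibroblasts and endothelial cells none in either library. With the 0 UMIs of endothelial cells set to 3, Acvr1c was 13.7-fold higher in control and 31.4-fold higher in mutant astrocytes than in endothelial cells. These folds leave out the counting error of the astrocyte UMIs.

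UMIs of the type II receptors were counted in every cell type, but outside neurons mostly below the level of barcodes without a cell. Acvr2a was highest in neurons at 102 and 60.2 CPM, and the other types lay between 19.1 and 26.6 CPM in the control and between 16.9 and 28.3 CPM in the mutant. Barcodes without a cell held 34.5 CPM (25.4 to 45.7) and 46.2 CPM (38.2 to 55.4) of Acvr2a, above each non-neuronal type. Endothelial cells were among those types, with 26.6 CPM (23.4 to 30.1) and 27.1 CPM (24.7 to 29.7). The exons of Acvr2a overlap those of Orc4 on the opposite strand, and the strand setting of the counting was not given in the sources used here. Acvr2b was highest in control microglia at 18.0 CPM (14.7 to 21.8), 2.11-fold above pericytes (1.26 to 3.76) and 3.17-fold above endothelial cells (2.26 to 4.50). The other control types had between 2.29 and 8.55 CPM. The level of Acvr2b without a cell was 11.5 CPM (6.57 to 18.7) and 9.55 CPM (6.12 to 14.2). Microglia of the control were the 1 group with a value above it, but the 2 intervals overlapped.

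**Figure D2:**
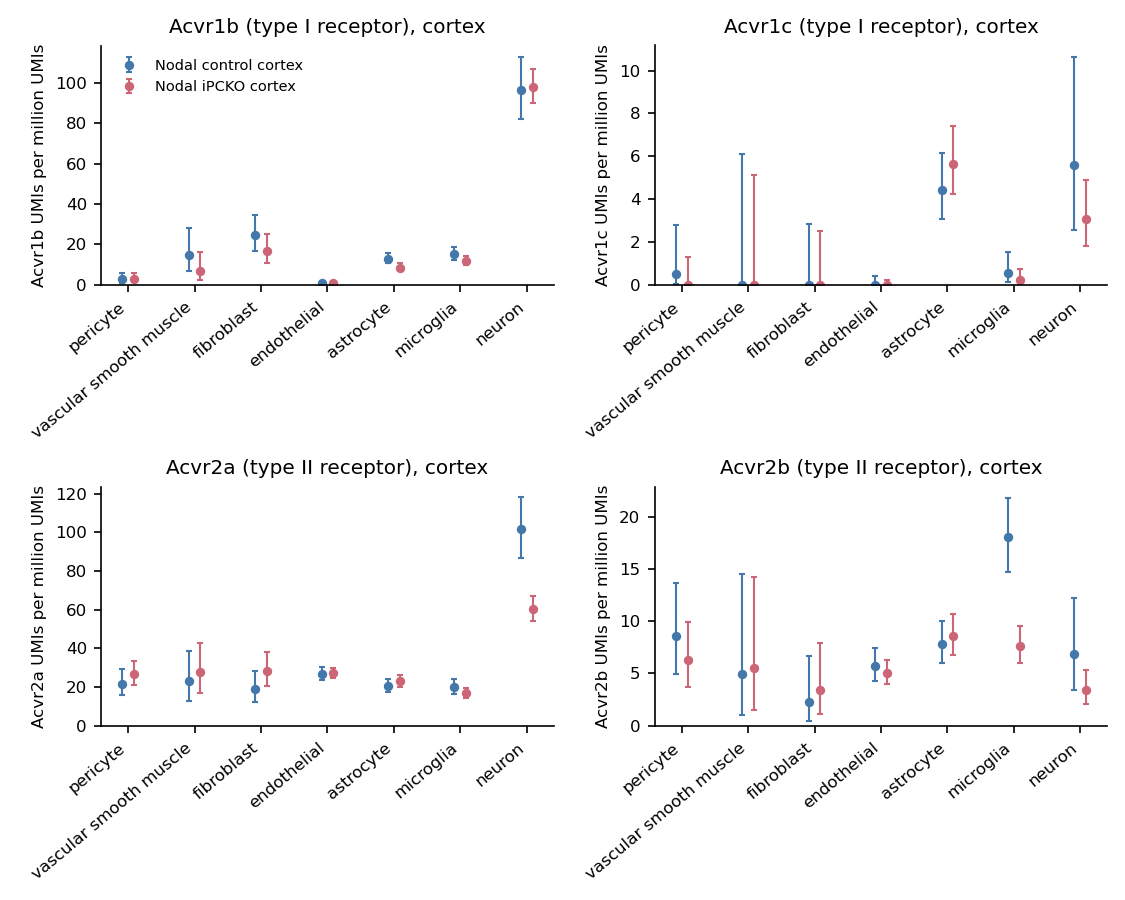
The 4 panels plot the CPM of Acvr1b, Acvr1c, Acvr2a and Acvr2b in the 7 cortex cell types, with exact Poisson 95% intervals, for the control and the Nodal iPCKO library. Acvr1b spans 0.536 CPM in endothelial cells to 96.6 CPM in neurons of the control, while Acvr2a in endothelial cells (26.6 CPM) is among the levels of the other non-neuronal types, each below the 34.5 CPM of barcodes without a cell.

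Nodal signals through a receptor of each type, and cells with a UMI of both were counted. In neurons 35 of 70 control cells (50.0%, 37.8 to 62.2) and 46.4% of mutant cells held a UMI of Acvr1b or Acvr1c together with one of Acvr2a or Acvr2b. The share was 7.53 and 7.5% in fibroblasts, 2.61 and 3.41% in astrocytes and 2.47 and 1.32% in microglia. It was 1.49 and 2.06% in smooth muscle cells, 0.369 and 0.271% in endothelial cells, and in pericytes 0 of 317 (which allows up to 0.946%) and 0.443%. No cell type known to lack the type II receptors gave a background share, and how much of the UMIs outside cells enters a cell was not measured. The shares outside neurons therefore do not show how many cells carry both receptors. These shares rise with the depth of a cell, and neurons had a median of 19243.5 UMIs against 6108.5 in microglia of the control (the medians here count rounded entries).

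Thinned to 3000 UMIs per cell, with shallower cells left out, the shares were lower and neurons stayed highest. They then had 6.45% (1.79 to 15.7) and 8.29%, on 62 control cells with 8 left out. Microglia had 0.948 and 0.368%, and astrocytes 0.144 and 0.506%. Fibroblasts, second to neurons with all UMIs, came to 1 of 90 and 0 of 109 cells (1.11 and 0%), and smooth muscle cells to 0 and 1.06%. Control and mutant endothelial cells and pericytes had 0, which in the control allows up to 0.403% of 745 endothelial cells and up to 1.11% of 270 pericytes. Without thinning, a type II receptor UMI was found in 26.3% (23.3 to 29.5) of control endothelial cells and a type I receptor UMI in 0.614%.

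**Figure D3:**
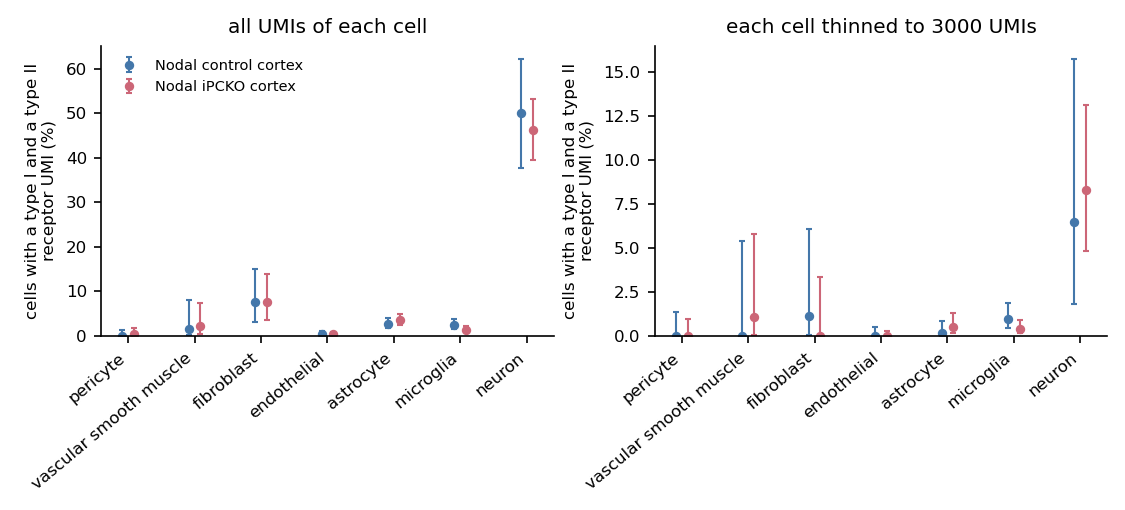
The percentage of cells with a UMI of a type I and of a type II receptor is plotted by cortex cell type, with exact Clopper-Pearson 95% intervals, with all UMIs and after thinning each cell to 3000 UMIs. Neurons lead at 50.0 and 46.4% with all UMIs and at 6.45 and 8.29% after thinning, and endothelial cells and pericytes are at 0 after thinning.

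The transducers Smad2 and Smad4 were measured in all 7 types. Smad2, phosphorylated by the type I receptors, was highest in microglia at 64.7 CPM (58.3 to 71.6) and 55.9 CPM. In barcodes without a cell Smad2 had 54.6 and 57.7 CPM, above the other control types (21.8 to 33.2 CPM) and above each mutant type. In the control Smad2 was 1.98-fold higher in microglia than in endothelial cells (1.70 to 2.32) and 2.96-fold higher than in neurons (2.09 to 4.32). In the mutant the level in microglia was not separated from that in fibroblasts (49.2 CPM) or smooth muscle cells (40.2 CPM). Smad4, the partner shared by all receptor-activated SMADs, had 147 CPM in pericytes, 130 CPM in endothelial cells, 121 CPM in fibroblasts and 112 CPM in smooth muscle cells of the control. It was lowest in neurons at 52.3 and 54.6 CPM, the type with the highest Acvr1b level. The level without a cell was 101 and 147 CPM for Smad4, above microglia, astrocytes and neurons of both libraries and above endothelial and smooth muscle cells of the mutant.

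The activin subunits were highest in different cell types of the control. Inhba, the subunit of activin A, had 39.7 CPM (25.4 to 59.0) in control smooth muscle cells on 24 UMIs in 12 of 67 cells, and no UMI in control pericytes, endothelial cells or microglia. In the mutant neurons had 12.7 CPM of Inhba, above the 9.70 CPM of smooth muscle cells, on 71 and 7 UMIs. Inhbb, the subunit of activin B, was highest in astrocytes at 15.9 CPM (13.3 to 19.0) and 20.2 CPM (17.4 to 23.3), where 103 of 804 control cells held it. No Inhbb UMI was found in pericytes of either library. Fst held 0 to 2 UMIs in each type of both libraries, too few at this depth to place its transcripts in any cortex type.

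Between the 2 cortex libraries, 39 of the 70 combinations of a gene and a cell type had the 20 UMIs in both libraries together that a ratio was set to require, and 6 of the 39 were past 2-fold, 2 higher and 4 lower in the mutant. Nodal in pericytes was 1 of them, and 5 of the other 38 were in smooth muscle cells, microglia and neurons. Of all genes with 20 UMIs, the share past 2-fold was 3.98% in pericytes, 5.13% in smooth muscle cells, 4.9% in fibroblasts, 4.26% in endothelial cells, 4.24% in astrocytes, 6.7% in microglia and 7.44% in neurons. The median log2 ratio of the tested genes of the 10 was 0.17 in pericytes, 0.20 in smooth muscle cells, 0.45 in fibroblasts, -0.00 in endothelial cells, 0.14 in astrocytes, -0.24 in microglia and 0.04 in neurons. The median of all genes lay between -0.08 and 0.00 in the same types.

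In microglia Acvr2b was lower in the Nodal iPCKO library. It had 18.0 CPM (104 UMIs in 91 of 890 cells) in the control and 7.64 CPM (76 UMIs in 68 of 1439 cells) in the mutant, a log2 ratio of -1.24 (-1.69 to -0.80). The intervals of the 2 levels did not overlap. Without a cell, barcodes held 11.5 CPM (6.57 to 18.7) and 9.55 CPM (6.12 to 14.2). These intervals overlapped with those of microglia in both libraries. The microglia markers of the gate together had 24762 and 20045 CPM, a smaller difference in the same direction, and its part in the ratio was not tested. Acvr2a (-0.24, -0.59 to 0.12) and Acvr1b (-0.36, -0.77 to 0.05) in microglia had log2 ratios whose intervals reached 0, and Smad2 was at -0.21 (-0.40 to -0.02).

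In smooth muscle cells Inhba was lower in the mutant, at 9.70 CPM (7 UMIs in 6 of 97 cells) against 39.7 CPM. The log2 ratio was -2.03 (-3.49 to -0.77). Smooth muscle markers together had 16730 and 15822 CPM, a smaller difference in the same direction whose part was not tested. In neurons Inhba had 4.99 and 12.7 CPM (8 and 71 UMIs) with a log2 ratio of 1.35 (0.30 to 2.62), and Inhbb had 1.25 and 6.82 CPM (2 and 38 UMIs) with a ratio of 2.45 (0.50 to 5.55). Both rest on few control UMIs from 70 neurons, and 1 cell held 5 of the 8 control UMIs of Inhba. With the 5% of barcodes with the most UMIs of each library left out, the Inhba ratio came to 3.42 (2.64 with the wider margin of the gate), and Inhbb came to 2.43 CPM in control and 0.928 CPM in mutant neurons, the opposite order, on too few UMIs for a ratio. Neuronal Acvr2b, at 6.85 and 3.41 CPM, had a ratio of -1.01 whose interval of -2.15 to 0.21 held 0.

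The remaining combinations were within 2-fold. In astrocytes, the cells next to the vessel wall, Acvr1b had 12.9 and 8.35 CPM, a log2 ratio of -0.63 (-1.07 to -0.18), with a UMI in 86 of 804 and 68 of 908 cells. Barcodes without a cell held 7.18 CPM (3.45 to 13.2) and 11.1 CPM (7.41 to 16.1). These intervals overlapped with those of astrocytes in both libraries. Neuronal Acvr2a was at -0.76 (-1.03 to -0.48), while neuronal Acvr1b was at 0.02 (-0.24 to 0.29). Endothelial cells had log2 ratios of 0.03 for Acvr2a (-0.20 to 0.26), 0.09 for Smad2 (-0.11 to 0.30) and -0.00 for Smad4 (-0.10 to 0.10), so differences past 0.30 in either direction lie outside the counting intervals of these 3 genes. In pericytes the receptors and SMADs had log2 ratios between -0.45 (Acvr2b, -1.49 to 0.60) and 0.31 (Acvr2a, -0.25 to 0.88).

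**Figure D4:**
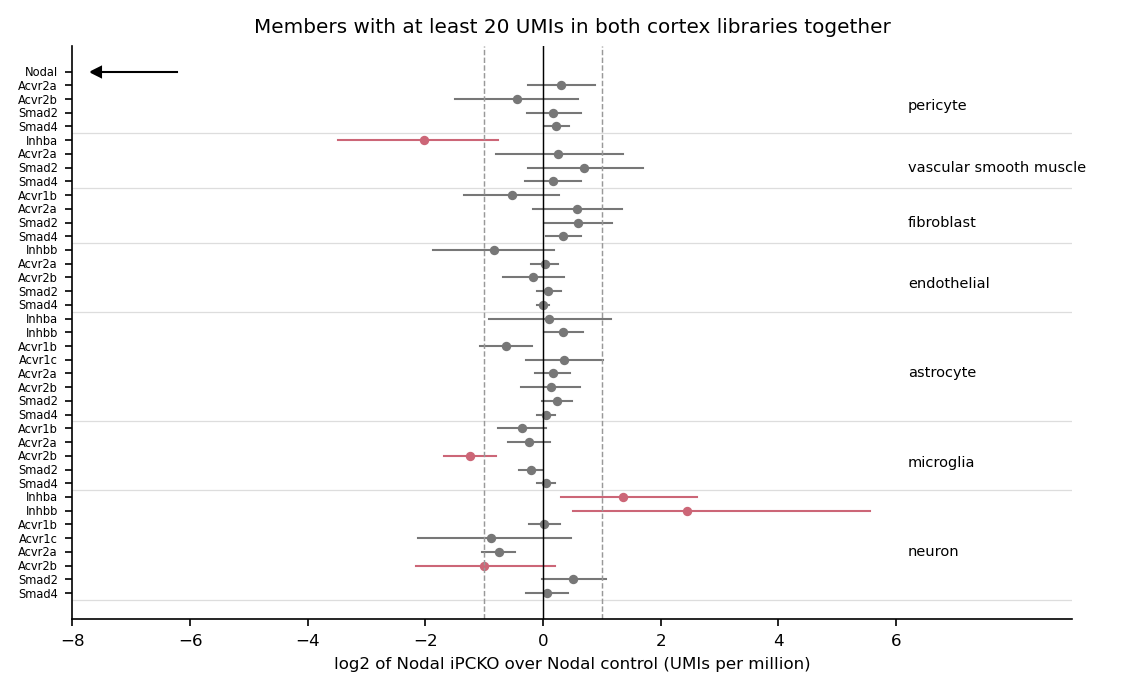
The log2 ratio of the Nodal iPCKO over the control library is plotted with its exact 95% interval for the 39 tested combinations of gene and cortex cell type, with those past 2-fold in red and the arrow marking Nodal in pericytes, where the mutant count of 0 gives only an upper bound. The other 5 past 2-fold are Inhba in smooth muscle cells, Acvr2b in microglia, and Inhba, Inhbb and Acvr2b in neurons.

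Of 43 further genes of the pathway 41 symbols were in the matrices. The co-receptors of Nodal were nearly absent from the cortex types. Tdgf1, the co-receptor of Nodal, had 2.52 and 1.74 CPM in pericytes on 5 UMIs each and at most 1.39 CPM in another type. Cfc1, the other co-receptor, and Cer1, a secreted antagonist, held 1 UMI each in the 2 libraries together, and Foxh1, a transcription factor that joins the SMAD complex, held none. Lefty1, an antagonist and known target of Nodal signalling, had 12.2 CPM in fibroblasts, 10.4 CPM in microglia and 6.54 CPM in pericytes of the control. In the mutant these were 12.8, 8.34 and 5.91 CPM. Lefty2, its paralogue, was found in neurons alone, at 17.4 and 31.1 CPM (28 and 173 UMIs).

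Other ligands and receptors of the list had distinct sources. Gdf1, a partner of Nodal in the embryo, had 96.7 and 89.4 CPM in astrocytes and 49.2 and 49.9 CPM in neurons, but shares exons on the same strand with Cers1, so its counts are uncertain. Fstl3, a relative of Fst that binds activins, had 101 and 122 CPM in smooth muscle cells. The TGF-beta type I receptor gene Tgfbr1 had 703 and 604 CPM in microglia and 19.0 and 20.8 CPM in endothelial cells. The type I receptor gene Acvrl1 had 203 CPM in endothelial cells of both libraries. In microglia the repressors of SMAD transcription Skil (904 and 916 CPM) and Tgif1 (620 and 629 CPM) were high. The convertase Furin had 73.5 and 64.0 CPM in pericytes, where Pcsk6 had 0 and 1.39 CPM.

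Past 2-fold between the cortex libraries were 0 of 25 tested genes of the list in pericytes, 0 of 22 in smooth muscle cells, 2 of 28 in fibroblasts, 2 of 28 in endothelial cells and 1 each of 27 in astrocytes, 25 in microglia and 27 in neurons. All genes gave 3.98 to 7.44% in these types, and the counts of the list are near that background. The median log2 ratio of the list lay between -0.23 and 0.11 over the types. In astrocytes the gene was Igsf1, a membrane protein linked to activin signalling, with 64.3 and 28.6 CPM and a log2 ratio of -1.17. In fibroblasts Wfikkn2, which binds myostatin and Gdf11, had 16.0 and 41.1 CPM and Pcsk6 5.34 and 11.5 CPM. Inhbc, an activin subunit, was lower in endothelial cells (1.82 and 0.719 CPM) and in microglia (4.16 and 1.31 CPM). The gene in neurons was Tgif1, also lower (4.99 and 2.51 CPM), at 2-fold. Pcsk6 in fibroblasts and Tgif1 in neurons rest on few UMIs, and no counting interval is given for their ratios. Endothelial Bmpr1a, a BMP type I receptor, had 1.29 and 3.06 CPM, far below the 165 and 167 CPM of pericytes.

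In the lung, Nodal was not detected in pericytes. The lung pericyte gate held 103 and 122 cells in the Bdnf control and Bdnf iPCKO libraries and 87 and 218 in the Hgf control and Hgf iPCKO libraries (this order holds below), and none of the 4 had a Nodal UMI, which allows up to 6.62, 7.45, 18.1 and 8.12 CPM. At 18.1 CPM or less these limits lie under the 96.6 CPM of cortex pericytes, though age and organ differ between the libraries and cannot be told apart. Lung endothelial cells held 10, 8, 8 and 6 Nodal UMIs, at 0.423, 0.295, 0.581 and 0.321 CPM. The pericyte markers together had 10469, 9849, 12549 and 12833 CPM in the gate, and the endothelial gene Kdr 155, 251, 60.4 and 393 CPM.

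In lung endothelial cells Acvr1b was at 37.0, 37.2, 66.0 and 84.0 CPM, on 876 to 1573 UMIs. It was at 0.536 and 0.719 CPM in control and mutant cortex endothelial cells. Organ, age, depletion and genotype differ between these libraries and cannot be told apart. Among endothelial subtypes, aerocytes (aCap) had 67.7, 57.1, 96.5 and 86.0 CPM and venous cells 26.6, 29.0, 49.3 and 95.8 CPM. Barcodes without a cell held 24.6, 45.9, 39.7 and 66.0 CPM, and the level in Bdnf iPCKO endothelial cells was below that of its library. Pericytes had 4.42, 12.4, 36.2 and 27.1 CPM on 2 to 10 UMIs, below the level without a cell in 4 of 4 libraries. Acvr2a, the type II receptor, was above it in pericytes at 166, 243, 308 and 198 CPM, against 130, 110, 96.6 and 91.6 CPM without a cell.

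The other receptors and SMADs of the lung were spread over many types. Acvr2a varied among mesenchymal cells, with 202, 182, 181 and 191 CPM in matrix fibroblasts, 140, 117, 100.4 and 115 CPM in myofibroblasts and 115, 117, 92.8 and 111 CPM in adventitial fibroblasts, but 34.0 to 62.6 CPM in smooth muscle cells, below the 71.9 to 95.8 CPM of endothelial cells. Barcodes without a cell held 130, 110, 96.6 and 91.6 CPM of Acvr2a. Smooth muscle, lymphatic endothelial, AT1, AT2, club and ciliated cells were below that level in 4 of 4 libraries. Endothelial cells were below it in both Bdnf libraries and in the Hgf control. The adventitial fibroblasts were below it in the control libraries of both pairs. Acvr2b was highest in AT1 cells, the flat cells of the alveolar wall, in 4 of 4 libraries, at 36.1, 25.8, 41.6 and 39.2 CPM. Acvr1c held 62, 53, 28 and 7 UMIs in AT2 cells, the surfactant-producing cells, which was 1.11, 1.02, 0.974 and 0.434 CPM. Barcodes without a cell held 1.52, 1.13, 2.16 and 0.363 CPM of Acvr1c, above the levels in AT2 cells in 3 of 4 libraries. Smad2 in endothelial cells had 44.9, 46.7, 39.3 and 34.7 CPM, each below the 67.4 to 85.6 CPM of barcodes without a cell.

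Among the 11 lung types the levels of the activin subunits were highest in smooth muscle (Inhba) and ciliated cells (Inhbb). Inhba had 117, 136, 150 and 56.3 CPM in smooth muscle cells and at most 2.48 CPM in pericytes. Inhbb had 64.1, 53.7, 75.8 and 41.4 CPM in ciliated cells and 32.9, 13.04, 28.1 and 12.1 CPM in club cells. The gates of these types hold many cells near their margin, 69 of 191 smooth muscle, 74 of 241 ciliated and 152 of 358 club cells in the Bdnf control library. In the cortex, too, Inhba was highest in the smooth muscle cells of the control library.

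Fst was highest in pericytes in each lung library. Pericytes had 199 CPM in the Bdnf control (90 UMIs in 34 of 103 cells), 353 CPM in Bdnf iPCKO (142 UMIs in 51 of 122), 241 CPM in the Hgf control (40 UMIs in 21 of 87) and 956 CPM in Hgf iPCKO (353 UMIs in 144 of 218). The next highest type, adventitial fibroblasts, had 71.1, 58.9, 84.6 and 86.2 CPM. Barcodes without a cell held 5.48, 5.10, 2.59 and 9.45 CPM. Pericytes of the cortex held 0 and 2 Fst UMIs, the reverse of the distribution of Nodal. The 2 organs also differ in age, depletion and genotype, which cannot be told apart here.

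In the Hgf pair the pericyte level of Fst was 3.96-fold higher in the mutant, a log2 ratio of 1.98 (1.51 to 2.49). Of all tested genes in these pericytes 15.4% were past 2-fold, and Fst was the 1 of 4 tested genes of the 10 that was. The share of pericytes with an Fst UMI was 24.1% (15.6 to 34.5) and 66.1% (59.4 to 72.3), although the median depth was lower in the mutant, at 1535 against 1855 UMIs. Rgs5 had 1575 and 853 CPM in these pericytes, Pdgfrb 1310 and 3912 CPM and Kdr 60.4 and 393 CPM, and the part of these differences in the Fst ratio was not tested. In the Bdnf pair, with 7.04% of all tested genes past 2-fold in pericytes, the Fst ratio was 0.83 (0.44 to 1.22). It came to 0.20 when the minimum of UMIs per barcode was doubled and to 1.21 with a wider margin of the gate. The 2 control lungs differed by 0.28 (-0.29 to 0.83).

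Over the 11 lung cell types, 4 of 72 tested combinations were past 2-fold in the Bdnf pair, where all genes gave 6.43%, and 12 of 54 in the Hgf pair, where all genes gave 14.9%. Between the 2 control lungs, which share an age, 4 of 64 were past 2-fold and all genes gave 14.1%. In the Bdnf pair Fst was higher in 6 of 7 types tested and past 2-fold in 3 of them, smooth muscle cells (9.32 and 21.3 CPM), AT1 cells (1.40 and 4.58 CPM) and AT2 cells (0.536 and 2.03 CPM). Over the alternatives the log2 ratio in smooth muscle cells went from 1.19 down to 0.45 and was past 2-fold in 5 of 7. In AT2 cells it went from 1.92 down to 0.45 and was past 2-fold in 8 of 9. The levels in AT1 and AT2 cells lay below the 5.48 and 5.10 CPM of barcodes without a cell. Between the control lungs Fst was higher in the Hgf control in 4 of 4 types tested. In the Hgf pair 6 combinations were higher and 6 lower. Its Fst ratios were above 0 in 5 of 5 types tested, but in adventitial fibroblasts only by 0.03 (-0.45 to 0.48) on the log2 scale. They included endothelial cells (3.85 and 10.3 CPM) and AT1 cells, with 0 and 8.17 CPM (29 UMIs), 10.9-fold higher against a floor of 3 UMIs in the control. The levels in AT1 cells and in AT2 cells (0.800 and 2.23 CPM) lay below the 9.45 CPM that barcodes without a cell held in the mutant, and that in endothelial cells was close to it.

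Inhba was lower in Hgf iPCKO in 3 of 3 types tested. In smooth muscle cells the log2 ratio was -1.42 (-2.67 to -0.31), on 31 and 9 UMIs, while the smooth muscle markers of the gate together were also lower, at 26730 and 11713 CPM, and their part was not tested. In endothelial cells it was -2.66 (-4.23 to -1.37), at 2.03 and 0.321 CPM on 28 and 6 UMIs. Barcodes without a cell were lower too, at 1.08 and 0.182 CPM on 5 UMIs and 1 UMI. In club cells Inhba had 12.04 and 0.989 CPM, but 1 cell held 63.3% of its UMIs in the control. Inhbb was lower in 4 of 4 types tested, by log2 ratios from -1.21 in club cells to -0.40. In club cells of the Bdnf pair it was also lower, at -1.33 (-1.70 to -0.98). Inhbb in barcodes without a cell of that pair was lower as well, at 8.22 and 1.13 CPM on 27 and 2 UMIs. The club ratios moved with the settings. That of the Hgf pair came to -2.20 with the wider margin and to -0.94, within 2-fold, with the mitochondrial limit, and that of the Bdnf pair to -2.12 with the deepest 5% of barcodes left out.

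Smad4 was higher in Hgf iPCKO than in its control in 11 of 11 types, by log2 ratios of 0.27 to 0.79, none past 2-fold. The same control library was lower than the Bdnf control in 11 of 11 types, by log2 ratios of -0.81 to -0.34, and shares its values with the first comparison. In barcodes without a cell Smad4 also was higher in Hgf iPCKO, at 188 against 133 CPM in the control. The Smad4 difference of the Hgf pair thus stood in every cell type and in barcodes without a cell alike. In the Bdnf pair Smad4 was higher in 6 and lower in 5 of 11 types.

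**Figure D5:**
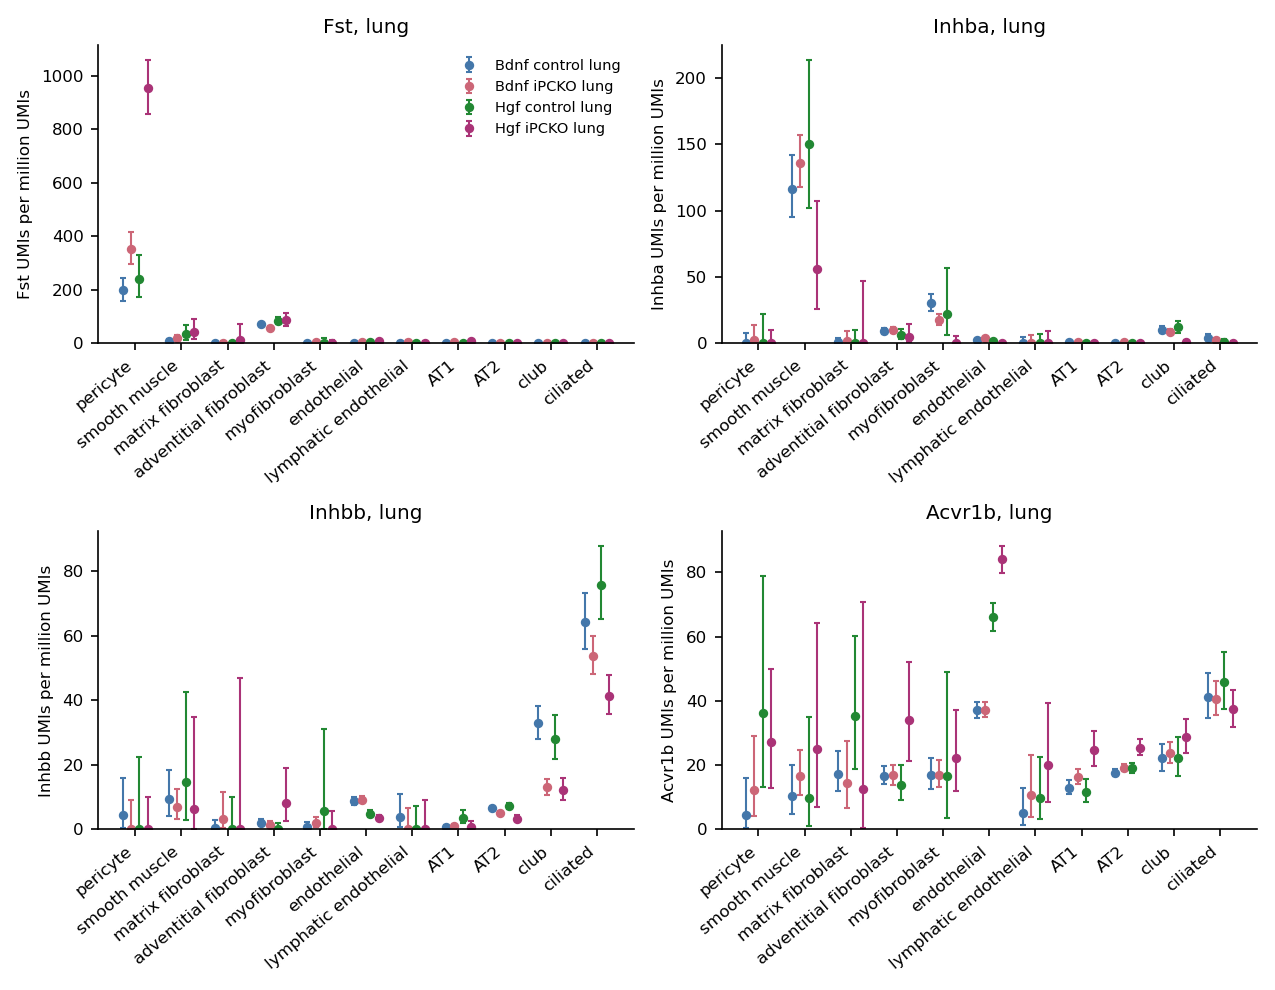
The CPM of Fst, Inhba, Inhbb and Acvr1b, with exact Poisson 95% intervals, is plotted for 11 lung cell types in the 4 lung libraries. Fst stands highest in pericytes, from 199 to 956 CPM, and Inhba in smooth muscle cells, from 56.3 to 150 CPM.

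Among the 41 further pathway genes, 0 of 20 tested in lung pericytes were past 2-fold in the Bdnf pair and 2 of 17 in the Hgf pair, where all genes gave 7.04 and 15.4%, so the list held no more than the background. Those of the Hgf pair were Tgfbr3, a co-receptor that also binds inhibin, with 314 and 682 CPM, and Pmepa1, a target and inhibitor of TGF-beta signalling, with 90.5 and 16.2 CPM. Tdgf1 had 17.7, 24.8, 18.1 and 35.2 CPM in lung pericytes against 0.338, 0.184, 0.726 and 1.02 CPM in lung endothelial cells. Lefty1 was at 0 in lung pericytes of 4 libraries, which allows up to 6.62, 7.45, 18.1 and 8.12 CPM. These limits lie above the Lefty1 levels of cortex pericytes, so a lower level than there is not shown. Lefty2, Cfc1 and Foxh1 were at 0 in lung pericytes, with the same limits, and in endothelial and AT2 cells.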

How the data were processed

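The authors aligned BD Rhapsody whole-transcriptome reads, which tag the 3′ end of transcripts, with STARsolo (STAR 2.7.10a per the labels) to GRCm39 with a GENCODE annotation, given as vM33 in their methods and as M26 elsewhere. Reads of several genes were shared by expectation maximization, so the deposited matrices hold an estimated count of UMIs per gene and barcode, without normalization or cell filter, and 8.50 to 9.95% of entries are fractional. Matrices held 33889545 and 54791946 UMIs for the cortex and 69403166 to 186701379 for the lungs.

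Barcodes with at least 1500 UMIs (700 in the Hgf libraries) were used, 3237 and 5009 in the cortex and 14623 to 24311 in the lungs. A barcode took the class with the highest share of markers detected, with at least 3 markers and a lead of 0.1. Classes of at least 50 cells were described, although matrix fibroblasts, myofibroblasts, smooth muscle, lymphatic, club and ciliated cells of the lung had many barcodes near the margin. The limits of the gate were set on marker levels and cell numbers. No doublet caller was run. The Nodal libraries shared 21 barcodes, the Bdnf pair 457 and the Hgf pair 254. UMIs were summed per library and type, divided by the total (CPM), and given exact Poisson intervals. Ratios carry conditional exact intervals and required 20 UMIs in both libraries together. They were called at 2-fold with 0.5 UMI added to each count, which called Tgif1 in neurons at a ratio without it of -0.99. A 0 was set to 3 UMIs. Shares carry Clopper-Pearson intervals. For the share of a single gene a cell needed an entry of at least 1, while the shares of the receptor types used rounded entries. For likeness to Nodal, the 5 genes with the highest correlation of log2(CPM + 1) were named among genes with at least 50 UMIs. Other genes were named for a ratio past 2-fold or as examples of a role, chosen after their values were seen.

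The genes and lists were chosen with earlier results of these data known. The text gives 10 genes and a pathway list of 43 symbols, of which 2 synonyms were not in the matrices. Alternatives changed the marker minimum, margin, UMI minimum, mitochondrial limit (20%), fractional entries, deepest barcodes and scaling. Scripts (Python 3.11.15, numpy 2.4.6, scipy 1.17.1, pandas 2.3.3) were tested on simulated data. Exons of Acvr1b, Acvr1c, Acvr2a, Acvr2b, Inhba, Inhbb and Fst overlap genes on the other strand in the GENCODE vM39 annotation used here for positions.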

Additional observations from a re-analysis of the deposited data

Results flagged for a closer look

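Outside the gated cells, several of the genes had a signal above the level of the control library. Among barcodes with 10 to fewer than 100 UMIs, which hold no cell, Smad4 had 147 CPM in the Nodal iPCKO cortex against 101 in its control, and Acvr1b had 45.9 CPM in the Bdnf iPCKO lung against 24.6 in its control. In the Hgf iPCKO lung the same barcodes held 9.45 CPM of Fst (2.59 in the control), 66.0 CPM of Acvr1b (39.7), 34.0 CPM of Acvr2b (23.9) and 188 CPM of Smad4 (133). Only rises were flagged. Among the genes lower in the mutant were Inhbb in the Bdnf pair (8.22 and 1.13 CPM) and Smad2 in the Hgf pair (85.6 and 67.4 CPM).

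In the control cortex, barcodes that the gate left unnamed held 9 Nodal UMIs, 8 of them in 1 barcode. Both barcodes with a Nodal UMI also carried pericyte markers. Cells that passed the myeloid gate of the CD45-depleted lungs were no part of the comparisons. They had Inhba at 43.6 CPM in the Hgf control (16 UMIs, 55 cells) and 47.4 CPM in Hgf iPCKO (25 UMIs, 43 cells). The Bdnf control held 1 Inhba UMI in 22 such cells (5.69 CPM, 0.144 to 31.7). Bdnf iPCKO held 0 in 14 cells, which allows up to 17.8 CPM. Of the Hgf cells, 26 of 55 and 18 of 43 lay near the margin of the gate.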

How the results depend on the processing

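No paired analysis was possible because each genotype has 1 library, which also left no replicate to leave out. Of 5646 recomputed values 5417 stayed within their counting interval or within 1.5 times a count, and 229 moved. A turn of direction was looked for only in ratios past 2-fold in the main setting that kept enough UMIs, and 0 turned. Levels, shares and smaller ratios could not be counted as turned, nor could neuronal Inhbb with the deepest barcodes left out. Over the alternatives Nodal in control pericytes ranged from 92.0 to 108 CPM, its log2 ratio against the floor from -6.58 to -6.39, Acvr1b in control endothelial cells from 0.435 to 0.649 CPM, and the Fst ratio of Hgf pericytes from 1.97 to 2.05. With the 5% of barcodes with the most UMIs left out, 39 of 70 control and 107 of 220 mutant neurons were kept, Acvr1b in control neurons came to 80.3 CPM and the share of control neurons with both receptor types to 25.6%. Over the alternatives the Bdnf pair had 3 to 7 combinations past 2-fold in place of 4, with 7 under the wider margin. When 50 UMIs were required, an alternative chosen after seeing the data, the Nodal pair had 3 in place of 6 and the Hgf pair 6 in place of 12. Fewer combinations are tested by construction in that setting. Genes with under 10 UMIs in a library, such as Acvr1b in pericytes, have wide counting intervals under each setting.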
